A study of Mus musculus with 8 samples.

Results

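The genes described here were the subunits of the NMDA and AMPA receptors, the ionotropic glutamate receptors that carry most fast excitatory transmission in the cortex. They were the rows of the count files named Grin1, Grin2a, Grin2b, Grin2d and Grin3a for the NMDA receptor and Gria1, Gria2, Gria3 and Gria4 for the AMPA receptor. The rows were chosen by symbol, with earlier results of these data known. These 9 genes were among 23284 gene symbols in each file, and all 9 were among the 14696 genes that passed the filter on low counts and were tested.

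RNA was sequenced from the dorsal cortex of C57BL/6 embryos at E15.5, in 4 libraries labelled WT and 4 labelled ErbB4 KO (ErbB4 -/-), to compare transcription with and without ErbB4, a receptor tyrosine kinase. No agent was given to either group. The KO mice lack ErbB4 outside the heart, where a transgene under the cardiac α-MHC promoter replaces it so that embryos survive, and the WT and KO lines were bred as separate homozygous colonies. The meninges and ganglionic eminences were removed at dissection, and the sources used here do not say which embryos were litter mates or whether embryos were pooled, so p-values measure the spread between these libraries only.

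Both receptors are assembled from 4 subunits around a cation pore. NMDA receptors need GluN1 (Grin1) together with GluN2 or GluN3 subunits, and those of GluN1 and GluN2 open when glutamate, a co-agonist and depolarization coincide and let calcium in. GluN2B (Grin2b) and GluN2D (Grin2d) are known as the early GluN2 subunits of the brain, while GluN2A (Grin2a) appears mainly after birth in the cortex. AMPA receptors are built from GluA1 to GluA4 (Gria1 to Gria4), and a glutamine codon in the pore of GluA2 is recoded to arginine by editing of its RNA, which closes the pore to calcium.

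At this pore site the encoded residue separates the families and Grin3a, and not the AMPA subunits from each other. The bases do differ between AMPA subunits, with the codon CAA in Gria4 and CAG in the others. The stretches of coding strand below, from NCBIM37 (mm9), the build of the deposited counts, are shown because they hold the codon of that site, which is a glutamine codon in all 4 AMPA subunits. Each has 45 bases, written 5′ to 3′, with that codon in capitals and 7 codons on each side. The residue positions are counted from the first methionine of the annotated transcript.
Gria2: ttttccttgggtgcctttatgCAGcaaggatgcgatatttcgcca
Gria1: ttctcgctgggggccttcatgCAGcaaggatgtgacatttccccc
Gria4: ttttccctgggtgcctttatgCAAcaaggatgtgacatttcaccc
Grin2a: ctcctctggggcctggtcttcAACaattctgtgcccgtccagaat
Grin3a: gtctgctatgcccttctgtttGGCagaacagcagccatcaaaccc

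The Gria2 stretch lies in a coding exon at chr3:80510812-80510856 on the minus strand, and its capitals are the glutamine codon 607 that editing recodes. The Gria1 stretch (chr11:57056575-57056619, plus strand) shared 36 of 45 bases with it and the Gria4 stretch (chr9:4464116-4464160, minus strand) shared 39, and both hold a glutamine codon. Gria3 on chromosome X shared 42 of 45 bases with Gria2. The Grin2a stretch (chr16:9653633-9653677, minus strand) has the asparagine codon 614, and shared 12 of 45 bases with Gria2. Grin3a (chr4:49783435-49783479, minus strand) has a glycine codon at the same place. Counts per gene do not show whether the RNA was edited.

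Between 28205703 and 48871480 reads were counted per library. Values below are CPM, read counts scaled to a common library size by TMM in edgeR, and differences are log2 fold changes of KO over WT from edgeR's quasi-likelihood test with Benjamini-Hochberg adjustment over all 14696 genes. The cortical markers Emx1, Tbr1 and Neurod6 were present in all 8 libraries, Neurod6 at 839 to 1093 CPM. The targeted gene was not lower in the libraries labelled KO. Erbb4 was at 8.99 to 25.3 CPM in WT and at 20.7 to 24.6 CPM in KO, which gave 0.28 on the log2 scale (SE 0.226) and an adjusted p of 0.812, or 0.06 without WT replicate 1, which had the 8.99 CPM, and 0.48 without WT replicate 3, which had the 25.3 CPM, and reads summed over the gene do not show which exons they covered. WT replicate 1 stood apart from the other libraries. Across the 14392 genes with a known transcript length, its deviation from the mean of all libraries fell with length (Spearman's rho = -0.58), against rho from 0.04 to 0.22 in the other 7, so long transcripts read low in it. Xist was at 983 to 1687 CPM in WT replicates 1 to 3 and at 2.70 to 3.82 CPM in WT replicate 4 and the KO libraries, while the Y-linked Ddx3y showed the opposite, so the sex of the embryos and the genotype cannot be fully told apart.

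The AMPA receptor subunits were the more abundant family at E15.5. Levels were compared between genes as CPM per kilobase of the longest annotated transcript, with all 8 libraries together. Gria2 stood first at 54.9 ± 7.55 (SD, n = 8), followed by Gria1 at 28.3 ± 2.72, Gria3 at 11.2 ± 0.728 and Gria4 at 9.19 ± 1.04. Every AMPA subunit was thus above every NMDA subunit by its mean. Among NMDA subunits the order was Grin1 at 5.92 ± 0.945, Grin2b at 4.45 ± 1.15, Grin3a at 1.97 ± 0.383, Grin2d at 1.34 ± 0.36 and Grin2a at 0.0819 ± 0.0248 CPM per kilobase.

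Within each of the 8 libraries the order of all 9 genes was the same. Between libraries, the ranges of neighbours overlapped for Gria3 and Gria4, Gria4 and Grin1, Grin1 and Grin2b, Grin2b and Grin3a, and Grin3a and Grin2d. The ranges were separate between Gria2 and Gria1, between Gria1 and Gria3, and between Grin2d and Grin2a. Per coding length the means kept this order, but Grin1 was above Grin2b in only 6 of 8 libraries.

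Composition was next set out as each subunit's percent of its family's summed level per kilobase. In the AMPA family, Gria2 took 53.1% ± 2.11 in WT and 52.7% ± 1.78 in KO (SD, n = 4 each). Gria1 took 27.2% ± 1.19 and 27.6% ± 1.27, Gria3 10.9% ± 0.903 and 10.9% ± 0.694, and Gria4 8.89% ± 0.489 and 8.86% ± 0.279. The WT and KO means of each AMPA share were within 1 SD of each other.

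The NMDA family was led per kilobase by the obligatory subunit Grin1, with 44.2% ± 7.71 in WT and 42.7% ± 3.62 in KO. With no length correction the lead turned, with Grin2b at 40.5% and Grin1 at 31.8% over all 8 libraries. Per kilobase, Grin2b took 31.0% ± 7.97 and 32.9% ± 3.98, and Grin3a, a GluN3 subunit that lowers calcium entry, took 14.3% ± 0.937 and 14.2% ± 0.519. Of the GluN2 level alone (Grin2a, Grin2b and Grin2d), Grin2b made up 73.8% ± 7.67 in WT and 76.3% ± 4.43 in KO. Grin2d made up 24.7% ± 7.64 and 22.3% ± 4.38 of it, and Grin2a 1.51% ± 0.549 and 1.40% ± 0.453. One library departed from this composition: in WT replicate 1, Grin1 was at 55.6% and Grin2b at 20% of the family, where the other 7 libraries held 27.1% to 37.0% Grin2b.

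**Figure D1:**
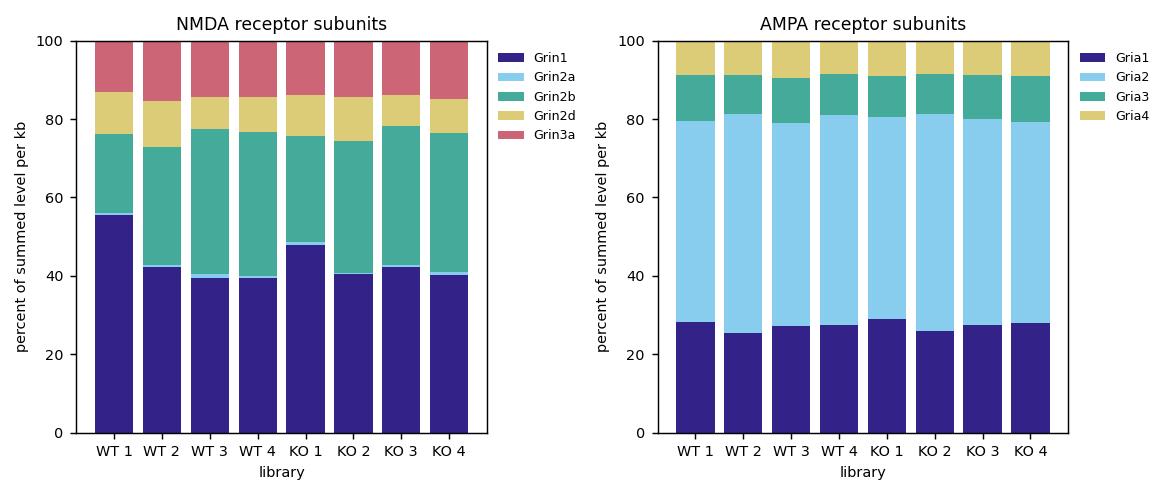
Share of each subunit in the summed level of its receptor family (percent of summed CPM per kilobase of transcript) in each of the 8 libraries, NMDA subunits on the left and AMPA subunits on the right. The AMPA bars are close to each other in all libraries, with Gria2 between 51.2% and 55.9%, while WT replicate 1 shows the smallest Grin2b share at 20%.

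Subunit by subunit, no member passed the test between the genotypes, and the WT and KO libraries overlapped for all 9. Of the 9 members, 0 were called by edgeR at an adjusted p under 0.05, where 4 of 14696 genes (0.0272%) were called in all. At an unadjusted p under 0.05 there was 1 member, Grin1, beside 5.53% of all genes. DESeq2 called 0 members among its 23 genes and had 1 member at an unadjusted p under 0.05. Libraries that did not overlap between the genotypes were found for 0 of 9 members and for 3.34% of all genes.

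All 9 fitted log2 fold changes were above 0, with a median of 0.18 and a range from 0.09 to 0.32. Over all genes tested, 49.2% of log2 fold changes were above 0 and the median was -0.0021. The median was 0.25 for the 5 NMDA subunits and 0.11 for the 4 AMPA subunits. These differences moved with single libraries, in both directions, and all 9 stayed above 0 whichever library was left out. Without WT replicate 1 the values of 8 members moved by over 1.5 times, and the medians were 0.08 for the 9 members, 0.10 for the NMDA subunits and 0.05 for the AMPA subunits. Without WT replicate 2 those of 4 members did, and the medians were 0.20, 0.39 and 0.18. Without KO replicate 1 the median of the 9 was 0.11. With each library's trend with transcript length removed, the median of the 9 was 0.15, that of the NMDA subunits 0.20 and that of the AMPA subunits 0.07, with Gria2 at 0.03, Gria4 at 0.06 and Gria3 at 0.07. With Xist as a covariate it was 0.19, with a range from 0.08 for Grin2b to 0.53 for Grin2a, and no member was called. WT replicate 4 was the only WT library with low Xist. The values with Xist as a covariate, here and below, thus rest largely on that library against KO. Those among the libraries with low Xist rest on it alone, so the 2 settings are not separate checks. The 10 measured markers of postmitotic cortical neurons summed to 9396 to 9671 CPM in WT and 9609 to 10240 CPM in KO, with 6 of 10 higher and 0 called. Their median log2 fold change was 0.01. Of 10 markers of cortical progenitors, the dividing cells that come before neurons, 0 were higher in KO and 0 called, with a median of -0.17. The part of either marker list in the subunit values was not tested. In bulk tissue, fewer cells of a type and less RNA per cell cannot be told apart.

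**Figure D2:**
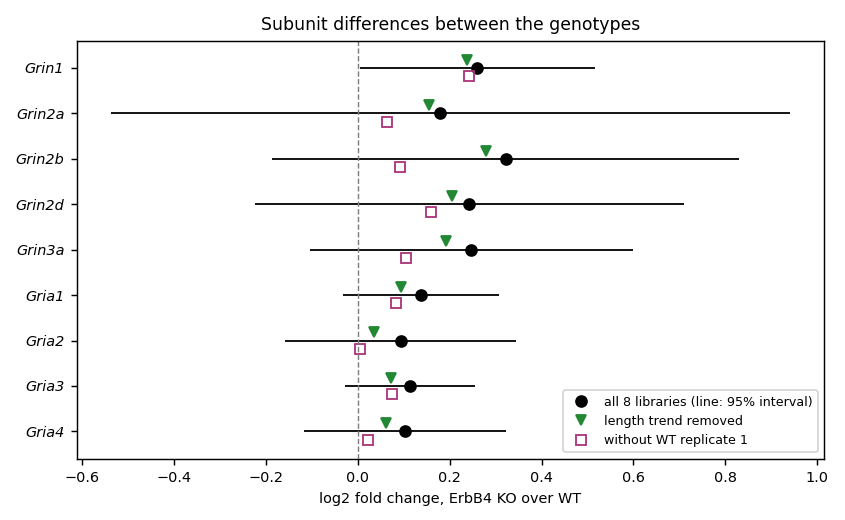
Log2 fold change of each subunit, KO over WT, with its 95% interval from edgeR's fit to all 8 libraries (circles and lines), with each library's length trend removed (triangles) and without WT replicate 1 (squares). All 9 circles lie above 0, and without WT replicate 1 Grin2b moves from 0.32 to 0.09 while Grin1 moves only from 0.26 to 0.24.

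Grin1, the subunit that every NMDA receptor needs, lies on the minus strand at chr2:25146701-25174707. It had 22.0, 27.3, 20.3 and 22.5 CPM in WT replicates 1 to 4 and 31.9, 29.5, 26.1 and 22.9 CPM in KO replicates 1 to 4. The KO libraries were all above the WT median, but KO replicates 3 and 4 lay below WT replicate 2. The means were 23.1 ± 2.99 in WT and 27.6 ± 3.94 in KO (SD, n = 4), and KO over WT was 0.26 in log2 units (SE 0.117, 95% interval 0.0056 to 0.516). The unadjusted p was 0.0459, the adjusted p from edgeR's test was 0.81 and the exact two-sided permutation p over the 70 assignments of the libraries was 0.143. A 4 against 4 design allows no permutation p below 0.0286. Without WT replicate 1 the log2 fold change of Grin1 was 0.24 with an unadjusted p of 0.0737. The gene overlaps E130003G02Rik on the opposite strand, and the libraries did not keep the strand. Per library, 10 to 35 reads were counted to E130003G02Rik and 618 to 1569 to Grin1. Whether reads shared by the 2 genes were lost was not tested.

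Grin2b encodes the main GluN2 subunit of embryonic cortex and lies at chr6:135679844-136123529 on the minus strand. Its CPM was 13.9, 34.2, 33.4 and 36.6 in WT replicates 1 to 4 and 31.5, 43.1, 38.3 and 35.2 in KO replicates 1 to 4. WT replicate 1 was the lowest of the 8 by a wide gap, and the other 3 WT libraries lay inside the KO range. At 0.32 (SE 0.232, adjusted p = 0.81, edgeR), its log2 fold change was the largest of the 9, but 0.09 without WT replicate 1. It was 0.08 with Xist as a covariate and 0.01 among the libraries with low Xist, the smallest of the 9 in both. Both values lean on WT replicate 4, as the only WT library with low Xist. The coefficient of variation among WT libraries was 35.7%, and 4.88% without WT replicate 1, against 13.3% in KO.

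The gap of WT replicate 1 was also taken with the length trend removed. On the log2 CPM scale the library differed from the mean of the other WT libraries by -1.32, and after the length trend was removed the difference was -0.99. For the long AMPA gene Gria2 the same difference went from -0.39 to -0.09, and for Gria1 from -0.24 to -0.04. Grin3a went from -0.70 to -0.37, and the -0.99 of Grin2b was the largest remaining gap of the 9. The cause of these gaps was not tested.

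Grin2d, the GluN2 subunit with slow channel closing, lies at chr7:53087253-53126298 on the minus strand and is known from subcortical regions and interneurons. It had 5.39, 9.53, 5.37 and 6.44 CPM in WT and 8.79, 10.3, 6.15 and 6.32 CPM in KO replicates 1 to 4. Each genotype held high and low libraries, with WT replicate 2 and KO replicates 1 and 2 above the rest. The log2 fold change was 0.24 (SE 0.214, adjusted p = 0.824, edgeR). Leaving out 1 library moved it from 0.09 without KO replicate 2 to 0.46 without WT replicate 2, with 0.16 without WT replicate 1 and 0.15 without WT replicate 3. Markers of interneurons and the ganglionic eminence summed to 561 to 736 CPM in WT and 538 to 732 CPM in KO, and they did not follow Grin2d in every library. The sums were 736 in WT replicate 2 and 732 in KO replicate 1, where Grin2d was high, but 646 in KO replicate 2, where Grin2d was highest, and 683 in WT replicate 3, where it was lowest. The lowest sums, 538 in KO replicate 3 and 561 in WT replicate 4, came with Grin2d at 6.15 and 6.44 CPM. In WT replicate 1 and KO replicate 4 the sums were 624 and 616, with Grin2d at 5.39 and 6.32 CPM. The part of these markers in the Grin2d values was not tested.

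Grin3a, at chr4:49674483-49858616 on the minus strand, had 9.13, 17.5, 12.9 and 14.4 CPM in WT and 16.1, 18.4, 14.9 and 14.8 CPM in KO replicates 1 to 4. WT replicate 1 was lowest, and WT replicate 2 lay above all KO libraries but KO replicate 2. The log2 fold change was 0.25 (SE 0.161, adjusted p = 0.81, edgeR), 0.10 without WT replicate 1 and 0.39 without WT replicate 2. Among the libraries with low Xist it was 0.15. Ppp3r2 lies inside the gene on the same strand and had 0 to 7 reads per library.

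Grin2a, the GluN2 subunit of the mature cortex, lies at chr16:9577803-9995014 on the minus strand and was close to the detection limit. It had 7, 11, 22 and 10 reads in WT replicates 1 to 4 and 26, 10, 17 and 14 reads in KO replicates 1 to 4, or 0.25 to 0.57 CPM in WT and 0.29 to 0.53 CPM in KO. The highest and the lowest CPM were both in WT libraries. Between the genotypes edgeR gave 0.18 in log2 units (SE 0.338, adjusted p = 0.898), and the 95% interval from -0.54 to 0.94 covers changes of either sign. The value was 0.06 without WT replicate 1 or KO replicate 1, 0.08 without WT replicate 4, 0.30 without KO replicate 2 and 0.46 without WT replicate 3, and 0.53 with Xist as a covariate.

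The files also held the remaining family members Grin2c, a GluN2 subunit known from the cerebellum, and Grin3b, a GluN3 subunit known from motor neurons. Grin2c had 1.82, 1.80, 1.36 and 1.00 CPM in WT and 1.97, 1.90, 1.84 and 1.78 CPM in KO replicates 1 to 4, and edgeR gave KO over WT as 0.33 in log2 units (SE 0.206, adjusted p = 0.81). Among the libraries with low Xist, WT replicate 4 at 1.00 CPM lay below all 4 KO libraries, and with Xist as a covariate the log2 fold change of Grin2c was 0.86 (adjusted p = 1.00), while without WT replicate 4 it was 0.18. Grin3b had 2.93 to 3.53 CPM in WT and 2.76 to 3.27 CPM in KO, and edgeR gave KO over WT as -0.07 in log2 units (SE 0.131, adjusted p = 0.9). Leaving out 1 library put Grin3b between -0.12 without WT replicate 4 and -0.03 without WT replicate 2, with -0.11 without KO replicate 1 and -0.04 without KO replicate 4. The Grin3b value turned above 0 with Xist as a covariate (0.04) and among the libraries with low Xist (0.05).

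**Figure D3:**
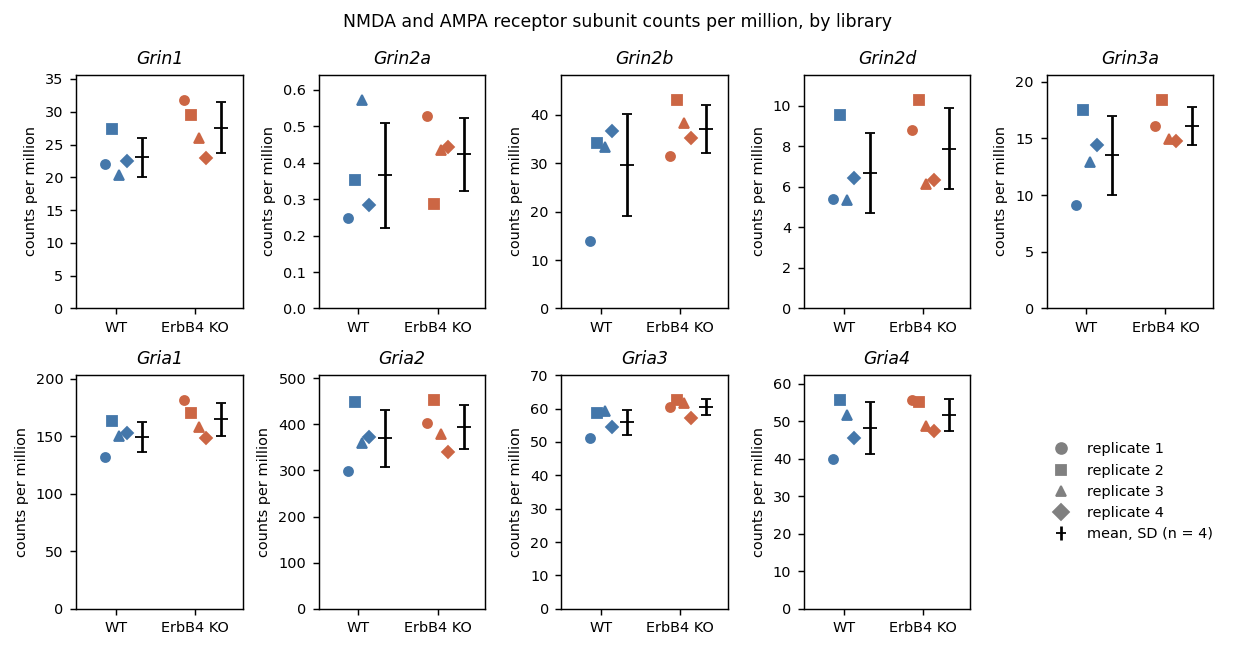
CPM of each of the 9 subunits in the 4 WT (blue) and 4 ErbB4 KO (orange) libraries, with the symbol showing the replicate number and the black bars the mean and SD (n = 4). The genotypes overlap in every panel, and the WT replicate 1 circle is the lowest point for 7 of the 9 subunits, with the widest gap for Grin2b at 13.9 CPM.

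Gria2, which carries the edited pore site, lies at chr3:80488858-80606713 on the minus strand. It had 299, 449, 359 and 372 CPM in WT and 404, 453, 379 and 341 CPM in KO replicates 1 to 4. The second highest value was WT replicate 2 and the second lowest was KO replicate 4, so the genotypes were interleaved. The means were 369.6 ± 61.8 and 394.2 ± 47.0 (SD, n = 4), and edgeR gave KO over WT as 0.09 in log2 units (SE 0.115, adjusted p = 0.86). It was 0.0045 without WT replicate 1, 0.02 without KO replicate 2, 0.15 without KO replicate 4 and 0.20 without WT replicate 2.

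Gria1, the subunit best known for activity-dependent delivery to synapses, lies at chr11:56824889-57143746 on the plus strand. It had 132, 163, 151 and 153 CPM in WT and 181, 170.1, 158 and 148 CPM in KO replicates 1 to 4. KO replicates 1 and 2 were above all WT libraries and KO replicate 4 was below 3 of them. The log2 fold change was 0.14 (SE 0.0777, 95% interval -0.03 to 0.31, adjusted p = 0.81, edgeR), 0.08 without WT replicate 1 and 0.09 without KO replicate 1.

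Gria3 lies on the X chromosome at chrX:38754031-39031778 on the plus strand. It had 51.3, 58.8, 59.3 and 54.4 CPM in WT and 60.6, 62.6, 61.6 and 57.3 CPM in KO replicates 1 to 4. Of the KO libraries, only replicate 4 was below any WT library. It had the narrowest interval of the 9, with a log2 fold change of 0.11 (SE 0.0646, 95% interval -0.03 to 0.25, adjusted p = 0.81, edgeR), and 0.07 without WT replicate 1. Among libraries with low Xist, WT replicate 4 lay below all 4 KO libraries and the log2 fold change was 0.15, with 1 WT library assumed to vary like the others.

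Gria4, at chr9:4417899-4796234 on the minus strand, encodes a subunit known from early cortical synapses and interneurons. It had 39.9, 55.7, 51.8 and 45.5 CPM in WT and 55.6, 55.2, 48.8 and 47.4 CPM in KO replicates 1 to 4. The highest value and the lowest were both in WT libraries. KO over WT was 0.10 in log2 units (SE 0.1, adjusted p = 0.831, edgeR), 0.02 without WT replicate 1, 0.06 without KO replicate 1 and 0.18 without WT replicate 2. With Xist as a covariate it was 0.21.

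Several subunits deviated together by library. WT replicate 1 had the lowest of the 8 values for 7 of the 9 members, with a median deviation of -0.34 on the log2 CPM scale from each gene's mean. WT replicate 3 had the lowest value for the other 2, Grin1 and Grin2d. KO replicate 2 had the highest value for 5 members, with a median deviation of 0.24, and KO replicate 1 for 2. Progenitor markers, which label dividing cells that come before neurons, summed to 2410 to 3011 CPM in WT and 2381 to 2724 CPM in KO, with 0 of 10 higher in KO and 0 called. Their highest sum was in WT replicate 1 and their lowest in KO replicate 2, the libraries with the lowest and the highest subunit values, and their part in the subunit values was not tested.

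**Figure D4:**
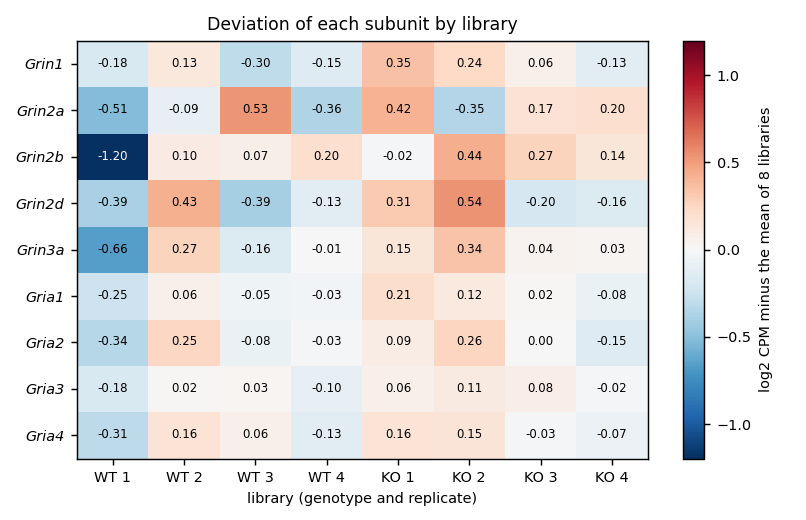
Deviation of each subunit's log2 CPM from its mean over the 8 libraries, by library, with blue below and red above the mean. The column of WT replicate 1 is blue throughout, with a median of -0.34, and the column of KO replicate 2 is red for all subunits but Grin2a.

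Genes that help the receptors fold, traffic, anchor and edit were described from a list of 28, of which 2 were found under older symbols. All 28 were tested and 0 were called by edgeR or by DESeq2, with 3 of 28 at an unadjusted p under 0.05 in edgeR, beside 5.53% of all genes. The WT and KO libraries did not overlap for 3 of 28 (Shisa9, Shisa6 and Cacng2), beside the 3.34% of all genes given above. The log2 fold change was above 0 for 24 of 28, beside 49.2% of all genes, with a median of 0.07, and without WT replicate 1 for 22 of 28, with a median of 0.06. Over all libraries left out in turn the median was 0.06 to 0.14, with 0.14 without WT replicate 2. With Xist as a covariate the log2 fold change was above 0 for 17 of 28.

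The highest log2 fold change of the list was that of Shisa9, which encodes an AMPA receptor auxiliary protein of the Shisa family. It was at 14.3 to 17.8 CPM in WT and 18.1 to 23.7 CPM in KO, which did not overlap, and edgeR gave KO over WT as 0.36 in log2 units (SE 0.102, adjusted p = 0.81). Cnih3, a cornichon that exports AMPA receptors from the endoplasmic reticulum, was at 45.5 to 51.8 CPM in WT and 50.3 to 66.5 CPM in KO, and edgeR gave KO over WT as 0.30 in log2 units (SE 0.0853, adjusted p = 0.81). Cacng5, a transmembrane AMPA receptor regulatory protein, had a log2 fold change of 0.26 (adjusted p = 0.81), or 0.16 without WT replicate 3. Their unadjusted p-values were 0.00427, 0.00444 and 0.0789. With Xist as a covariate the log2 fold changes were 0.22 for Shisa9, 0.21 for Cnih3 and 0.17 for Cacng5, and among the libraries with low Xist they were 0.21, 0.22 and 0.16.

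At the low end of the list, Cpt1c, an AMPA receptor partner in the endoplasmic reticulum, had a log2 fold change of -0.08, Pick1, which binds GluA2 in endocytosis, of -0.07, and the scaffold gene Dlg1 of -0.04. Their adjusted p-values were 0.822, 0.8285 and 0.898. Single libraries moved these small values: Cpt1c was at -0.04 without KO replicate 4 and -0.13 without KO replicate 2, Pick1 at -0.02 without WT replicate 1, and Dlg1 between -0.01 without WT replicate 3 and -0.08 without WT replicate 1. With Xist as a covariate Cpt1c was at -0.15, Pick1 at -0.01 and Dlg1 at -0.10. Among the libraries with low Xist they were at -0.15, 0.0016 and -0.11. Adarb1, the enzyme that edits the Gria2 pore codon shown above, was at 38.7 ± 3.5 CPM in WT and 40.7 ± 0.826 CPM in KO (SD, n = 4), with a log2 fold change of 0.07 (adjusted p = 0.839), or 0.01 without WT replicate 1. Dlg4, the PSD-95 scaffold of excitatory synapses, was at 336 ± 10.8 and 339 ± 4.95 CPM, with a log2 fold change of 0.01. Both turned below 0 with Xist as a covariate, at -0.02 for Adarb1 and -0.025 for Dlg4. Adarb1 and Dlg4 were picked from the list for their roles after their values were seen.

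**Figure D5:**
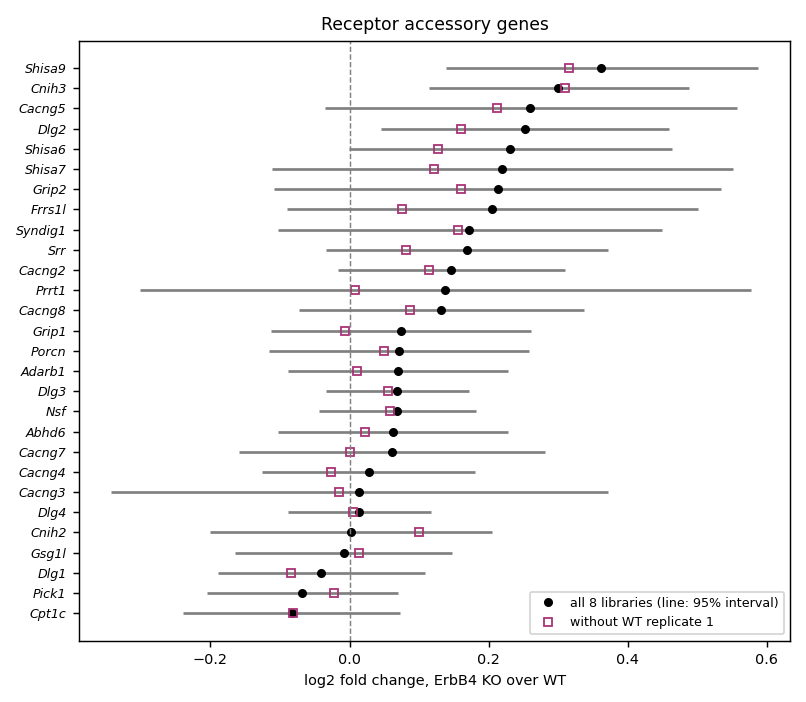
Log2 fold change, KO over WT, of the 28 receptor accessory genes with 95% intervals from all 8 libraries (circles and lines) and without WT replicate 1 (squares). Shisa9 at 0.36 and Cnih3 at 0.30 are the highest, with 0.31 for both without WT replicate 1.

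Across the 8 libraries, the tested genes whose log2 CPM ran most like that of Grin1 were Abcc4, Scamp5 and Greb1, with Pearson's r of 0.976, 0.975 and 0.974. For Gria2 they were Lamb1, Cr2 and Papd5, with r of 0.992, 0.984 and 0.974. These r values describe 8 libraries that share depth and length trends, and each gene was the best of 14696 by choice.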

How the data were processed

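Dorsal cortex RNA (E15.5) was measured in 4 WT and 4 KO libraries by polyA, single-end RNA-seq without strand. Per the study's methods and the submitters' processing notes, the authors mapped reads to mm9 with HISAT and deposited raw counts per gene symbol from HTSeq-count; versions, annotation and counting mode are not given in the sources used here. Reads shared by overlapping genes may thus be lost or misplaced. A deposited table of the authors' own DESeq2 comparison was not used. Groups came from the labels.

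Counts were fitted with edgeR 4.0.16 in R 4.3.3 (TMM, filterByExpr with a minimum count of 10 and total of 15, glmQLFit and glmQLFTest, no covariates), with Benjamini-Hochberg adjustment over all genes tested and a threshold of 0.05. Log2 fold changes used a prior count of 2. DESeq2 1.42.0 and limma 3.58.1 (voom) were alternatives, with other scalings, filters, thresholds, a length correction (lowess, span 0.3), Xist as a covariate, the replicate number as a block and each library left out. The length correction combined with leaving out WT replicate 1 was added after the data were seen. Lengths, positions and sequences were those of the longest GENCODE transcripts of NCBIM37. The common biological coefficient of variation was 10.7%. Intervals are 95%.

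The genes named were the 9 members, the 2 other genes of their families, every accessory gene past the threshold and otherwise the 3 highest and 3 lowest of that list (Adarb1, Dlg4, Shisa6 and Cacng2 were added after their values were seen), and the 3 genes nearest in pattern to the leading subunit of each family. Members and lists were chosen with earlier results of these data known. Of the other marker lists, sums over WT and KO libraries were 111 to 122 and 114 to 122 CPM for meninges and vessels, 31.8 to 56.6 and 20.8 to 35.2 for red blood cells, 43.8 to 51.3 and 45.3 to 53.5 for microglia, 29.2 to 40.4 and 28.8 to 40.1 for astrocytes, and 43.6 to 58.9 and 50.6 to 64.8 for the oligodendrocyte lineage, with 0 genes called by edgeR. The steps were tested on simulated data. Figures were drawn with matplotlib 3.10.9.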

Additional observations from a re-analysis of the deposited data

Results flagged for a closer look

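Of 22 groups of 4 libraries examined, 1 held a library far from its group. On the log2 CPM scale, the gap of WT replicate 1 to the nearest other WT library for Grin2b was 0.904 of the whole WT range, above the 95% limit of Dixon's test for 4 values. Chance alone gives such a value in about 1 of 20 groups.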

How the results depend on the processing

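The 9 subunits kept a log2 fold change above 0 and an adjusted p above the threshold in all 188 values under the alternatives that could be fitted, with the lowest adjusted p at 0.495. Requiring a mean of 50 counts left Grin2a untested. The number of genes called over the whole table was 4, and 23 with DESeq2. It was 2 with the length trend removed. It was 1 at a threshold of 0.01, with relative log expression or upper-quartile scaling, with the 10 most abundant genes left out, with the replicate block, with Xist as a covariate, and among libraries with low Xist. Leaving out 1 library gave 1 to 13 genes, 13 without WT replicate 4. Correlations of deviations between same-numbered WT and KO libraries were 0.02 to 0.13, and those between libraries of different number were -0.19 to 0.15. The best correlation was with the library of the same number for 5 of 8 libraries. Under the replicate block 0 subunits were called, as in the main fit. Whether the replicate numbers pair the libraries was not tested. Of the 28 accessory genes, 6 turned sign when 1 library was left out (Cacng3, Cacng4, Cnih2, Gsg1l, Dlg4 and Grip1). Of the 12 genes beside the members that were run under all alternatives, 4 turned sign: with Xist as a covariate, Grin3b was at 0.0423, Adarb1 at -0.0177 and Dlg4 at -0.025; among libraries with low Xist, Grin3b was at 0.0491, Pick1 at 0.0016, Adarb1 at -0.0278 and Dlg4 at -0.0245; and leaving out 1 library put Dlg4 from -0.0034 (without WT replicate 3) to 0.0271. The cause was not tested. Per coding length, the share of Grin3a in the NMDA family was 19.2% and that of Gria2 in the AMPA family 58.4%; with no length, Grin2b at 40.5% stood above Grin1 at 31.8%. The fewest reads of a member were those of Grin2a, 7 to 26 per library.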

Other observations

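The balance between the receptor families was looked at after the values were seen, as 1 of 5 ratios and with no test. The summed level of the 4 AMPA subunits per kilobase was 9.05, 7.64, 8.27 and 7.48 times that of the 5 NMDA subunits in WT replicates 1 to 4, and 7.25, 6.91, 7.2 and 7.18 times in KO replicates 1 to 4. The WT mean was 8.11 ± 0.711 and the KO mean 7.14 ± 0.154 (SD, n = 4). The WT and KO libraries did not overlap, nor did they with coding lengths (10.4 to 12.8 in WT, 9.65 to 10.2 in KO). WT replicate 1 had the highest ratio per kilobase of transcript, so leaving it out could not make the groups overlap. The WT ratio nearest to KO was the 7.48 of WT replicate 4, the only WT library with low Xist, against 7.25 in KO replicate 1. Without any length correction they overlapped (7.78 to 10.3 in WT, 7.29 to 7.91 in KO).

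The level of Grin2b per kilobase relative to Grin1 was 0.36 in WT replicate 1, between 0.716 and 0.939 in the other WT libraries, and between 0.565 and 0.88 in KO.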
